A study of Mus musculus with 18 samples.

Results

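The voltage-gated calcium channel genes described here are 10 genes, Cacna1c, Cacna1d, Cacna1g, Cacna1h, Cacna2d1, Cacna2d2, Cacnb1, Cacnb2, Cacnb3 and Cacnb4, of 21883 protein-coding mouse genes. The rule lists them by name and uses no measured value, and each was taken as its GRCm38 span plus 2000 bases on each side. The data are MeDIP-seq, in which an antibody to 5-methylcytosine enriches methylated fragments of the genome before sequencing, so a peak marks local enrichment and gives no percent of methylated molecules. The DNA came from myocardium of male C57BL/6JR mice aged 12 weeks. In 5 groups of 3 mice the left anterior descending coronary artery had been tied to cause myocardial infarction (MI), and the hearts were taken 10 min or 1 h later, or at 6 h, 24 h or 72 h. The sham group, also 3 mice, had the surgery without the tie, so the time after sham surgery was not matched to each MI group. The labels name cardiomyocytes as the cell type but describe no isolation, so changes in the mix of cells and changes within cells cannot be told apart. Peaks do not measure expression and could not check the cell type: of cardiomyocyte markers 1 of 8 had a start window under a peak in any library (Actn2), of leukocyte markers 1 of 5 (Itgam), and of fibroblast and endothelial markers 0 of 2 each. Itgam had this peak in 9 or more libraries and Actn2 in fewer. These counts are of genes, by any of their start windows, so the shares that follow, which are of windows, are in another unit. Of all protein-coding start windows 6.13% were under a peak in any library and 1.37% in 9 or more.

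Voltage-gated calcium channels open when a membrane depolarises and let calcium into the cell. The alpha-1 subunit forms the pore: Cacna1c encodes the L-type pore Cav1.2, whose current triggers contraction of the ventricle, Cacna1d the L-type pore Cav1.3 of pacemaker and atrial cells, and Cacna1g and Cacna1h the T-type pores Cav3.1 and Cav3.2. Alpha-2-delta subunits (Cacna2d1, Cacna2d2) lie outside the membrane and beta subunits (Cacnb1 to Cacnb4) inside it, and both help bring L-type channels to the surface and set their gating. CpG-rich promoters are as a rule unmethylated in normal tissue.

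The sequences at the starts of these genes carry the clearest pattern of where peaks were absent, so a few are shown first. RefSeq (GRCm38.p6) gave 16 start windows of 300 bases, 250 before to 50 after a start site, for 8 of the 10 genes; Cacna1g and Cacna1h had no entry. Those below are the 3 starts of Cacna1c, which range from 3 to 57 CpG, both starts of Cacna1d, the Cacnb4 start closest to a region found in every library, and 1 of 2 starts of the long non-coding RNA gene Gm38887 inside Cacna1c, the one that lay under a peak. Each runs 5′ to 3′ on the gene's own strand, and capitals mark CG, the motif searched, which reads the same on both strands and is in 94.6% of the 32851 windows in the table.
Cacna1c, start with 57 CpG: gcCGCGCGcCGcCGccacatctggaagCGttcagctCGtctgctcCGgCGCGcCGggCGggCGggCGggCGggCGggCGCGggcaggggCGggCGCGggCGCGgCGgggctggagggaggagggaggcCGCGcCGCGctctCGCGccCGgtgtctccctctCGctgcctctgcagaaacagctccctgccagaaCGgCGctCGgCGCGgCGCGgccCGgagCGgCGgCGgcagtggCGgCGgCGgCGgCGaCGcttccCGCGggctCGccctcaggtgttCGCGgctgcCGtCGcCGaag
Cacna1c, upstream start with 3 CpG: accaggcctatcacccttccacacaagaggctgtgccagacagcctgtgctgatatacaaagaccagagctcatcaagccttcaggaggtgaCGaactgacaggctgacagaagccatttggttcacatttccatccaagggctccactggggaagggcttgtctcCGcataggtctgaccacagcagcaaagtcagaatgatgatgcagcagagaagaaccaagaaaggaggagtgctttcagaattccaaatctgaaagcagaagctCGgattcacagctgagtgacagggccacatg
Cacna1c, internal start with 7 CpG: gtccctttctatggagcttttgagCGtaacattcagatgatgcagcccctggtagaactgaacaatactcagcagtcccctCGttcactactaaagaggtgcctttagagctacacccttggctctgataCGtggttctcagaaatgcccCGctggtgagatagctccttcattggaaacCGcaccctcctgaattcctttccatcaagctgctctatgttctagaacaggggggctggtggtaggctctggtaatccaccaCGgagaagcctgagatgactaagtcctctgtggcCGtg
Cacna1d, start with 63 CpG: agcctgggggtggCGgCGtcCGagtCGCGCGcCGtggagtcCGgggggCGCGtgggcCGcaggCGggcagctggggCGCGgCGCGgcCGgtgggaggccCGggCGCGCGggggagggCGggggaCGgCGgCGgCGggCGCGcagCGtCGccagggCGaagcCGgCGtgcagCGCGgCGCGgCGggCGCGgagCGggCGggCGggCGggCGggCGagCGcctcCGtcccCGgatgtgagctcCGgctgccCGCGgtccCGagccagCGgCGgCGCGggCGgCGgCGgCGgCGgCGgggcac
Cacna1d, upstream start with 4 CpG: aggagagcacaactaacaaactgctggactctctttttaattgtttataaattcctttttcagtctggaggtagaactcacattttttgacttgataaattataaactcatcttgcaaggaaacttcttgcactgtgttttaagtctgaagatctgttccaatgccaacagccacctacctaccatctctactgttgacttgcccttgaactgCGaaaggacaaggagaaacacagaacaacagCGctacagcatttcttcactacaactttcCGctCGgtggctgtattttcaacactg
Cacnb4, internal start with 5 CpG: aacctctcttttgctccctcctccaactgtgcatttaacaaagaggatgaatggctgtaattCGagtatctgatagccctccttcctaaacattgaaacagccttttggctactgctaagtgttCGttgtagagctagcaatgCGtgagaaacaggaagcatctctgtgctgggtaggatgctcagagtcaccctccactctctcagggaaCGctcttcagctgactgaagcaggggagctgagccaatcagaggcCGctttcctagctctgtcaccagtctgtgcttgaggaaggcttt
Gm38887, start with 6 CpG: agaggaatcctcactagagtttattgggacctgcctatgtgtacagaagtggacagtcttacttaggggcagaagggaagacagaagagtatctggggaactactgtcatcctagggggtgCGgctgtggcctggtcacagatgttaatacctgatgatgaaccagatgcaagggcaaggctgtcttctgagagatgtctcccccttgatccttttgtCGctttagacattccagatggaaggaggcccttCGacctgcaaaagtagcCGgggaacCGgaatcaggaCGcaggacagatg
The 57-CpG window of Cacna1c is chr6:119108446-119108745 (minus strand), its 3-CpG window is chr6:119196360-119196659 (minus strand) and its 7-CpG window is chr6:118757925-118758224 (minus strand). Those of Cacna1d are chr14:30353437-30353736 for 63 CpG and chr14:30491107-30491406 for 4 CpG (both minus strand). The Cacnb4 window is chr2:52558562-52558861 (minus strand) and that of Gm38887 is chr6:118597777-118598076 (plus strand).

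None of the 9 windows of these genes with 20 or more CpG lay under a peak in any of the 18 libraries. That is the usual state of such windows: of protein-coding windows with 30 or more CpG 0.396% were under a peak in any library, and of those with 20 to 29 CpG 1.75%. The other 7 windows of the channel genes held under 10 CpG, and 1 of them, the upstream start of Cacna1d with 4 CpG, was under a peak in 1 library, chr14:30490755-30491652 at 72 h, where the gene Dcp1a overlaps. Among all protein-coding windows with under 10 CpG the share was 10.3%. The Gm38887 window was covered in 7 libraries by chr6:118597260-118598791, with 2 sham, 2 of 10 min, 2 of 24 h and 1 of 72 h, and the other Gm38887 window, with 10 CpG, had no peak. Inside Cacnb2, chr2:14766683-14767396 covered 2 overlapping start windows of the long non-coding RNA gene Gm13269 in 2 libraries, 1 of 10 min and 1 of 1 h. The other Gm13269 window, with 1 CpG, had no peak. The CpG classes were chosen after the values were seen.

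**Figure D1:**
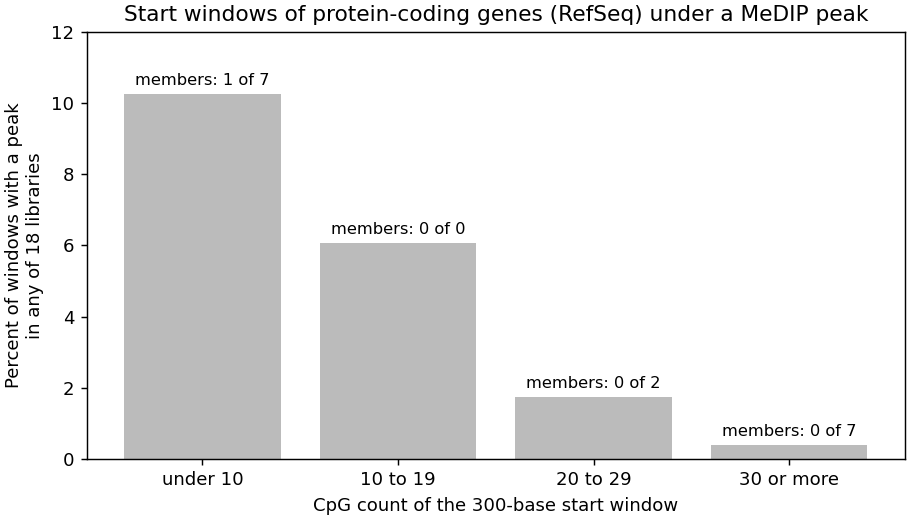
Percent of RefSeq start windows of protein-coding genes with a peak in any of 18 libraries (y axis) by CpG count of the 300-base window (x axis); the text over each bar counts the calcium channel windows. The bars fall from 10.3% at under 10 CpG to 0.396% at 30 or more, and the only channel window under a peak is in the lowest class.

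From the 9 CpG-rich windows, the nearest region of any kind was 495 to 25751 bases away and was found in 1 to 7 libraries, and the nearest in 9 or more libraries was 17995 to 218559 bases away. Upstream of the CpG-rich Cacna1c window, 495 bases from it, chr6:119109240-119110552 had a peak in 7 libraries: all 3 of 72 h, and 1 each of sham, 10 min, 6 h and 24 h. The scores of those 7 peaks, the authors' own value for each peak, ran from 54.1 to 86.1 with a median of 61.0, against a median of 72.1 over all peaks. In Cacnb4, which encodes the beta-4 subunit, the 5-CpG window was 946 bases from chr2:52555508-52557616, which had a peak in all 18 libraries.

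Over the 10 genes, peaks of the 18 lists merged into 187 regions of 152196 in all, or 7.57 regions per 100 kb of their 2470 kb. Most were found in few libraries. There were 58 regions (31.0%) in 1 library, 92 (49.2%) in 2 to 8, 30 (16.04%) in 9 to 17 and 7 (3.74%) in all 18. Over all merged regions the shares were 29.2%, 45.6%, 20.1% and 5.09%. The 7 regions in every library had a median score of 137, against 119 for all such regions in the genome, and regions in 1 library had 58.4 in both. The lists held from 34255 to 60653 peaks, most on average at 72 h (56084 ± 6528, SD, n = 3) and fewest at 6 h (42620 ± 8149). Read depth is unknown, so whether a missing peak is missing methylation or low depth cannot be told apart. Sham had 51287 ± 8068 peaks.

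**Figure D2:**
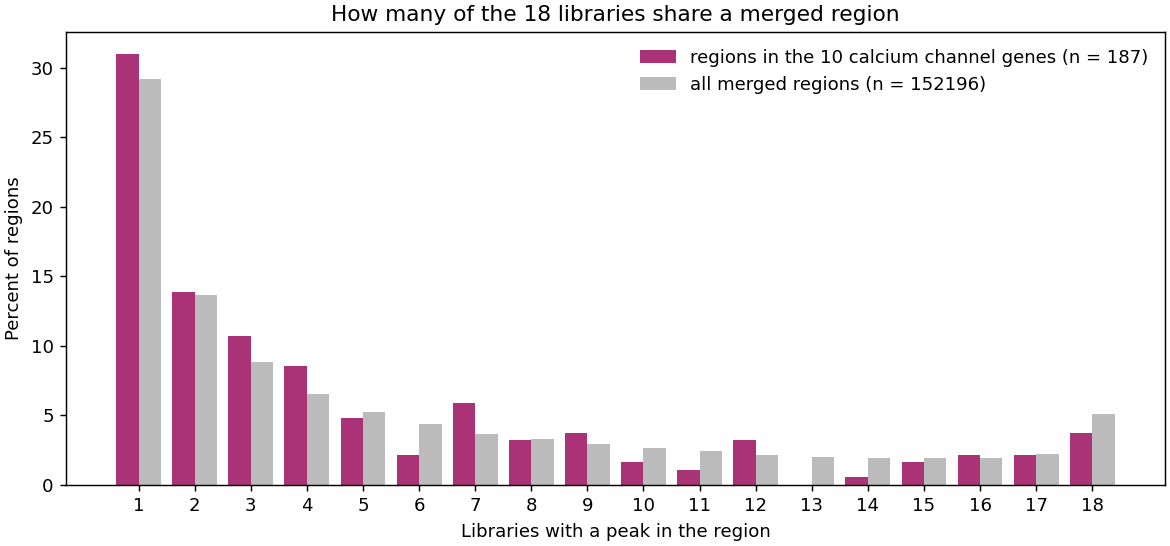
Percent of regions (y axis) by the number of libraries with a peak in the region (x axis), for 187 regions of the calcium channel genes and all 152196 regions. Both sets are highest at 1 library, at 31.0% and 29.2%, and rise again at 18 libraries, to 3.74% and 5.09%.

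Cacna1c, the ventricular L-type pore (chr6:118587240-119197384, minus strand), held 56 regions, of which 18 were in 1 library, 25 in 2 to 8 and 13 in 9 or more. The only one in all 18 libraries was chr6:118636870-118638626, in the part of the gene nearer its 3′ end. Its scores ran from 53.7 in the first 24 h library through a median of 98.5 to 132 in the first 72 h library. The sham libraries scored 93.7, 79.8 and 101, inside the range of the MI libraries, so the groups overlapped.

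The other recurrent Cacna1c regions are given in order along the chromosome, from the 3′ end of the gene. At the end itself, chr6:118586623-118587820 had a peak in 11 libraries, 2 of sham and 2 of 10 min, all 3 of 1 h and of 24 h, 1 of 72 h and 0 of 6 h. Next came chr6:118607483-118608886, present in 17, all but 1 of the 6 h libraries. Further in, chr6:118668880-118670257 was found in 12, among them all of sham and of 1 h. These were followed by chr6:118711511-118714042 in 9 libraries, all 3 of sham and 0 of 6 h, a merged region of 2532 bases in which the third sham and the second 72 h library each had 2 separate peaks. In contrast, chr6:118735447-118736557, present in 11, had no peak at 72 h. Around the internal 7-CpG start, chr6:118750943-118752199 was present in 14 libraries and chr6:118768541-118770269 in 9.

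Upstream of that start, chr6:118803174-118804760 was present in 12 libraries, all 3 of 6 h and of 72 h. Its neighbour chr6:118829322-118830599 was present in 10, all 3 of sham and 0 of 6 h, and chr6:118853887-118854815 in 10, all 3 of 72 h. The last pair lies within the long non-coding RNA gene Gm50599, which overlaps Cacna1c. Of these, chr6:118976163-118977473 was in 9 libraries, all 3 of sham and of 72 h, 0 of 10 min and 1 at each other time. The other, chr6:119006791-119007858, was in 16 and had the highest median score of the 13 regions, 115, with 199.6 in the second sham library. No region in 9 or more libraries lay between it and the CpG-rich start, 101171 bases away from the region's centre. The 43 regions in fewer than 9 libraries were 458 to 1760 bases wide, with median scores from 51.2 to 97.5. Among the 18 in 1 library, 5 were from 6 h, 5 from 72 h, 4 from 24 h, 3 from sham, 1 from 10 min and 0 from 1 h.

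**Figure D3:**
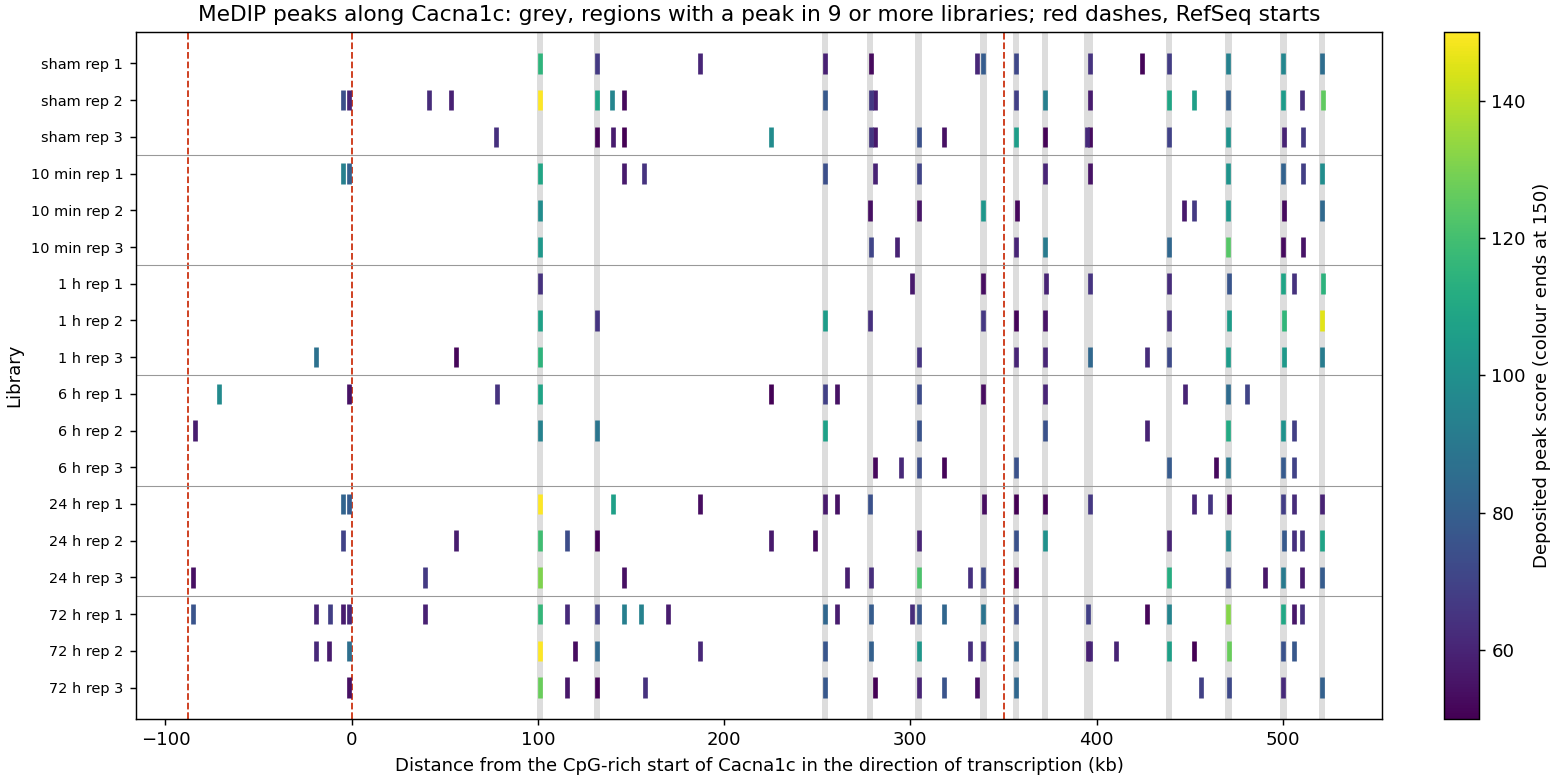
Map of Cacna1c: each row is 1 of 18 libraries, the x axis is distance in kb from the CpG-rich start in the direction of transcription, each mark is a peak coloured by its deposited score, grey bands are regions in 9 or more libraries and red dashes are RefSeq starts. Of 56 merged regions 1 is filled in every row and 13 in at least 9 rows, and the 72 h rows hold the most marks, 21 on average.

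The share of the Cacna1c span under peaks was 1.99%, 2.59% and 2.62% in sham. It was 2.03%, 1.84% and 1.19% at 10 min, 1.35%, 1.81% and 1.89% at 1 h, and 1.84%, 1.61% and 1.53% at 6 h. At 24 h it was 2.30%, 2.42% and 2.28%, and at 72 h 3.31%, 3.37% and 2.37%. All 6 libraries of the late times, 24 h and 72 h, were above all 9 of the early times, with ranges of 2.28% to 3.37% and 1.19% to 2.03%, and sham overlapped both. This split of times was chosen after the values of Cacna1c were seen, so Cacna1c was bound to pass it on this scale. The shares of genes apart, here and on the other scales below, therefore do not measure how rare the pattern is. Such ranges, late above early, were apart in 10 of 7406 genes tested (0.135%), and among the channel genes tested in 1 of 8. Divided by the share over all protein-coding genes in the same library, the ranges stayed apart, 0.990 to 1.31 against 0.610 to 0.949 (0.054% of genes). With only the 34255 top-scoring peaks of each library they overlapped, 1.12% to 1.74% against 0.897% to 1.71% (0.0549% of 5464 genes apart).

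No group difference in Cacna1c passed the test. On log2(percent + 0.5), limma with Benjamini-Hochberg adjustment over 7406 genes gave an adjusted p = 0.874 across the 6 groups. At 72 h the gene was higher than at 1 h by 0.69 ± 0.24 (SE) on that log2 scale (limma adjusted p = 0.4996), and the difference was 0.69 from 10 min and 0.69 from 6 h (limma adjusted p = 0.5996 and 0.501). Against sham, the 72 h difference was 0.27, with a 95% interval from -0.25 to 0.79. The mean number of peaks per list was also highest at 72 h, and its part in the result was not tested.

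The bases behind these shares came from regions of different recurrence. In regions found in 9 or more libraries, sham had 9.86 ± 0.35 kb under Cacna1c peaks, 6 h had 5.98 ± 1.28 kb and 72 h had 9.66 ± 2.07 kb (SD, n = 3). In regions found in fewer than 9 libraries, sham had 4.89 ± 2.20 kb, 1 h had 1.29 ± 1.22 kb and 72 h had 8.89 ± 1.90 kb. The 72 h and sham libraries overlapped in the recurrent regions, at 7.62 to 11.8 kb and 9.51 to 10.2 kb, but not in the rarer ones, at 6.95 to 10.8 kb and 2.37 to 6.42 kb. In the rarer regions all 72 h libraries were above all sham libraries in 2 of the 8 channel genes tested, Cacna1c and Cacnb4 (4.05 to 5.36 kb against 0.960 to 2.58 kb), and in 5.58% of all genes. Recurrence was counted over these same libraries, so the split is a description with no test.

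Cacna1d, the pacemaker L-type pore (chr14:30039941-30491156, minus strand), held 46 regions over a mean of 2.67% ± 0.70 of its span (SD, n = 18). Its region in all 18 libraries, chr14:30095731-30097533, also lies toward the 3′ end, and scored from 79.1 to 213 with a median of 143. Another 6 regions were in 9 or more libraries. The group means of percent covered ran from 2.23% ± 0.45 at 1 h to 3.22% ± 0.31 at 10 min (SD, n = 3), and sham spread from 1.83% to 4.01%, wider than the distance between those means. Over the 6 groups the limma adjusted p was 0.958.

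Among the T-type pores, Cacna1g (chr11:94408391-94474400) had 7 regions and Cacna1h (chr17:25374285-25436334) 5, with none in every library. Sham libraries of Cacna1g had 3.91%, 6.60% and 5.00% of the span under peaks, and the 72 h libraries 3.09%, 0% and 3.37%. All 3 sham values were above all 3 at 72 h, as in 3.77% of all genes tested, and 1 of the 8 channel genes tested did so. With equal numbers of top-scoring peaks they overlapped, at 1.16%, 0% and 3.52% in sham and 1.39%, 0% and 1.99% at 72 h, and the difference of all MI libraries from sham turned from -0.97 to 0.59 on the log2 scale. As deposited, the 72 h difference of -1.54 on the log2 scale had a 95% interval from -3.72 to 0.64 (limma adjusted p = 1.00). A region over one end of the gene, chr11:94407873-94409356, had a peak in all 3 sham libraries, with scores of 73.3, 50.8 and 51.8, and in 0 of 3 at 24 h. At the other times it was present in 1 of 10 min, 2 of 1 h, 1 of 6 h and 2 of 72 h. For Cacna1h, the most recurrent region was chr17:25401869-25402916, in 16 libraries. The mean percent covered was lowest in sham, 1.72% ± 0.99, and highest at 72 h, 3.96% ± 1.58 (SD, n = 3), and the limma adjusted p over the 6 groups was 0.937.

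Cacna2d1, the alpha-2-delta-1 subunit that accompanies Cav1.2 in heart (chr5:15934264-16374511, plus strand), had 13 regions, 11 of them in 1 to 7 libraries. The 2 others were in all 18 libraries, chr5:16283893-16285952 and chr5:16289368-16292403, which lie 3415 bases apart toward the 3′ end and made up 71.0% of its covered bases. The second was the highest-scoring region of the 7, with a median of 220 over the highest score in each library. Ranked within their own lists, its peaks had a median percentile of 99.2. Sham scored 287, 316 and 175 there, and the third 72 h library 217, each with 1 peak. In the first and second 72 h libraries the region was split into 2 peaks, with scores of 143 and 211 and of 89.1 and 223, and in the other 16 libraries it was 1 peak. The higher peak of each 72 h library was inside the sham range and both of the lower ones were below it. Covered percent was 1.31% ± 0.29 (SD, n = 18), and the limma adjusted p over the 6 groups was 0.941.

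Cacna2d2, the alpha-2-delta-2 subunit (chr9:107399733-107529346, plus strand), had the highest covered share of the 10 genes, 4.21% ± 1.43 (SD, n = 18), and no region in every library. Its values were 4.22%, 7.21% and 4.57% in sham and 2.02%, 3.38% and 2.55% at 6 h. They were 5.35%, 5.33% and 5.16% at 72 h. All 3 values at 6 h were below all of sham and all of 72 h. This was not confined to 6 h: the values at 1 h (3.84% to 3.94%) and at 24 h (3.01% to 4.14%) were also below both groups. At 6 h Cacna1c did the same, and its 1 h values (1.35% to 1.89%) were below both groups too. Thus 2 of the 8 channel genes tested had sham above 6 h (7.21% of all genes) and 2 of 8 had 72 h above 6 h (11%). The shares of all genes for 1 h and 24 h are not given here. With equal numbers of top-scoring peaks, Cacna2d2 had all of 72 h above all of 6 h (limma adjusted p = 0.684). The share of all genes apart on that scale is not given here. The sham and 6 h libraries of Cacna2d2 overlapped on it, and those of Cacna1c overlapped in both comparisons. As deposited, the Cacna2d2 difference of 6 h from sham was -0.88 ± 0.30 (SE, limma adjusted p = 0.784). That of 72 h from 6 h was 0.90 ± 0.30 (SE, limma adjusted p = 0.501). Neither passed.

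Among the beta subunits, Cacnb2, the main beta subunit of heart muscle (chr2:14603861-14988811, plus strand), was the least covered of the 10, with 0.970% ± 0.232 (SD, n = 18) and 10 regions, and the 2 found in all 18 libraries held 61.5% of its covered bases. One of them, chr2:14626258-14628042 (median score 139), overlaps the pseudogene Gm13268, and chr2:14811576-14812796, in 17 libraries, overlaps the pseudogene Gm13316. The other region in every library was chr2:14984978-14986421, with a median score of 73.1. Pseudogenes are copies of other genes, and reads from near-identical copies can be placed wrongly. Of 10 pseudogenes inside the channel genes 5 had a peak and 2 a peak in 9 or more libraries, against 36.8% and 16.03% of 2227 within all protein-coding genes.

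Cacnb4 (chr2:52428320-52676609, minus strand) held 30 regions, 14 of them in 1 library. Its covered percent was 2.21%, 3.19% and 2.24% in sham and 3.51%, 4.46% and 3.44% at 72 h. All 3 of 72 h were above all of sham, which 1 of the 8 channel genes and 6.29% of all genes tested showed. With equal numbers of top-scoring peaks they overlapped, with means of 1.98% at 72 h and 1.97% in sham. As deposited, the difference of 0.51 had a 95% interval from -0.26 to 1.27 (limma adjusted p = 1.00). Cacnb1 (chr11:98001508-98023034) had a peak in 5 libraries and Cacnb3 (chr15:98628436-98644536) in 6, each in 2 regions, and neither reached the mean of 1 peak per library needed for the test. Both are short genes.

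**Figure D4:**
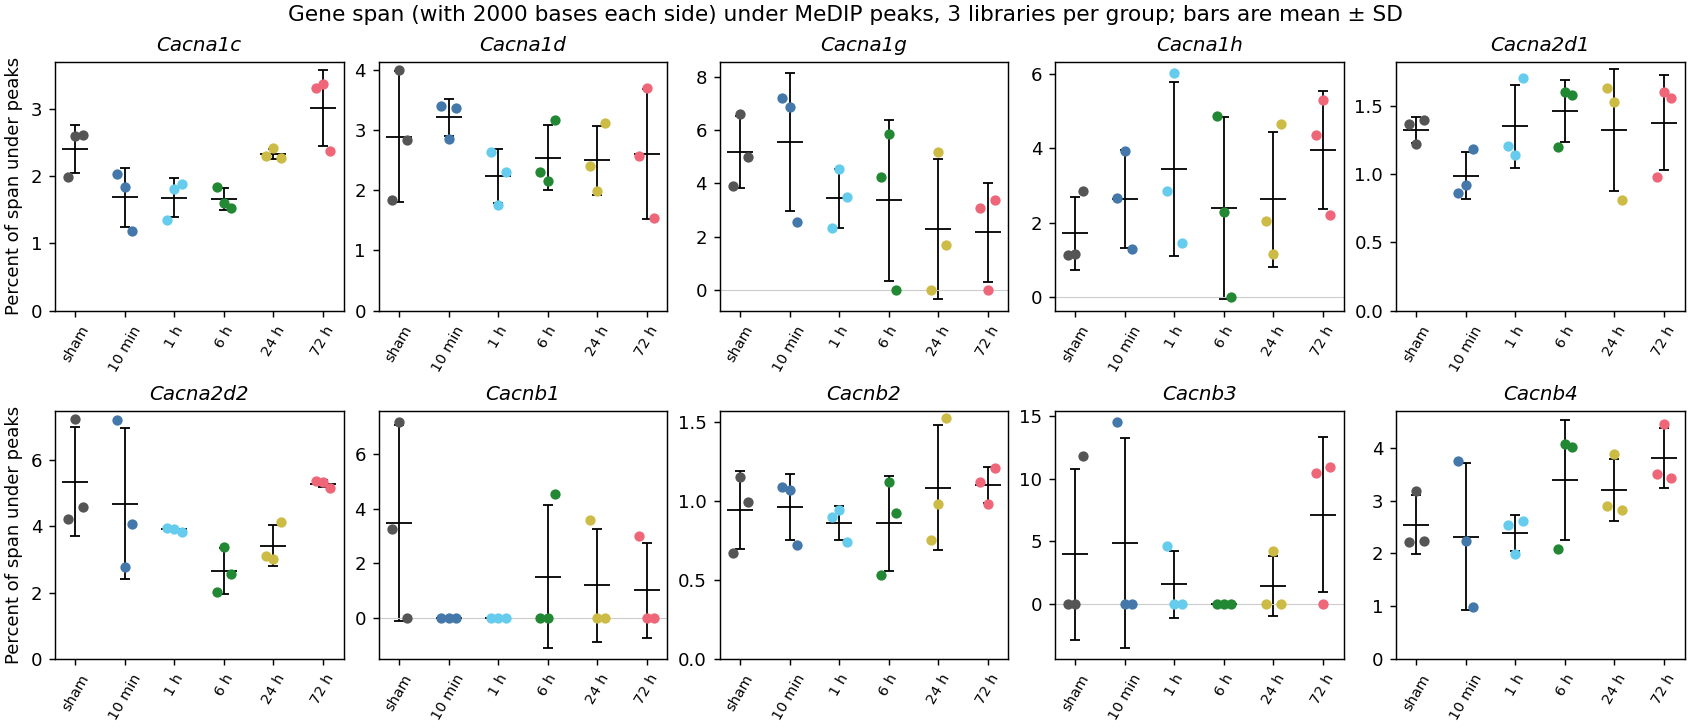
Percent of each gene's span under peaks (y axis) in 6 groups (x axis), 1 panel per gene; points are libraries, and the mean and SD are over 3. Cacna1c runs from 1.19% to 3.37%, and Cacnb1 and Cacnb3 are at 0 in most libraries.

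Single regions were compared by presence. A region counted as gained where every library of an MI group had a peak and no sham library did, and as lost where every sham library had one and no library of the MI group did. With 3 libraries against 3 the smallest exact two-sided p is 0.1, so no region was tested this way. Of 935 comparisons (187 regions at 5 times), 3 were gained, or 0.321%, against 0.351% over all regions, and 4 lost, or 0.428%, against 0.561%. Both shares were near the background. By time, the channel genes had 0 gained regions at 10 min (0.216% of all regions), at 1 h (0.225%) and at 24 h (0.393%), and 0 lost at 1 h (0.553%) and at 72 h (0.397%). The lost regions were the pair in Cacna1c at 6 h described above (background at 6 h 0.706%), chr6:118976163-118977473 of Cacna1c at 10 min (0.624%) and the Cacna1g region at 24 h (0.524%). The gained regions were chr2:14779113-14780277 of Cacnb2 and chr2:52479030-52480605 of Cacnb4 at 72 h (0.719%), and chr2:52474178-52475531 of Cacnb4 at 6 h (0.201%). The scores in those gained groups, beside the median of 72.1 over all peaks, were 83.2, 59.6 and 74.8 in Cacnb2, 81.8, 60.6 and 51.6 in Cacnb4 at 72 h, and 58.9, 51.5 and 56.7 at 6 h. For all 15 MI against 3 sham libraries, 0 regions of the channel genes were gained (background 0.0375%) and 0 lost (0.252%). Fisher's exact test, two-sided, gave a smallest p of 0.0564 among them, and 0 of 187 had an unadjusted p under 0.05, against 0.858% of all regions; its smallest adjusted p over all regions was 1 (0% called).

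At the level of genes, limma called 0 of the 8 channel genes tested in any comparison. Over all 7406 genes it called 0.054% across the 6 groups, 0.0135% at 10 min against sham, 0.027% at 1 h, 0.0135% at 6 h, 0% at 24 h, 0% at 72 h and 0% for MI against sham. Against sham, 1 of the 8 had an unadjusted p under 0.05 in any contrast, Cacna2d2 at 6 h (5.94% of all genes tested). In the other contrasts with sham, 3.59% to 5.20% of all genes tested had a p that low. Between MI time points, 4 of 80 tests did (5%), against 6.14% over all genes, where limma called 0% between 6 h and 24 h, also 0% between 24 h and 72 h, 0.0135% for 24 h or 72 h against 10 min, 0.0405% for 6 h against 1 h, 0.054% for 1 h against 10 min and 0.027% for the other 4. The median log2 difference of the 8 genes was -0.07 for MI against sham and 0.09 for 72 h, beside -0.13 and 0.07 over all genes tested. Two-sided exact permutation tests of 15 against 3 libraries gave p from 0.150 for Cacna2d2 to 0.847 for Cacnb2, with adjusted p from 0.986 to 0.993; the smallest p they can give is 0.00123.

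**Figure D5:**
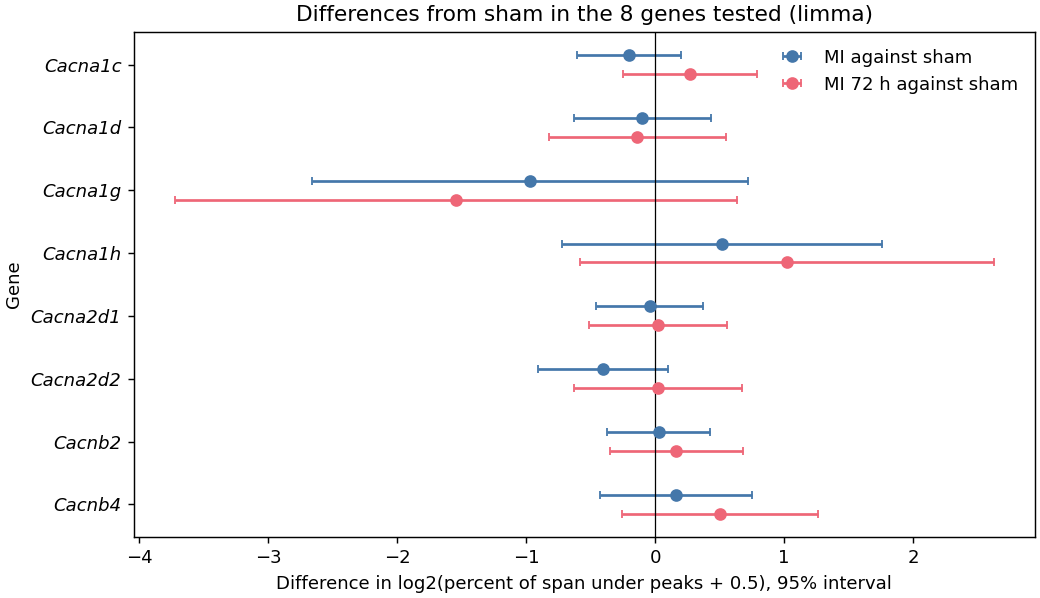
Difference in log2(percent of span under peaks + 0.5) from sham (x axis) with its limma 95% interval, for all MI libraries and for 72 h, in the 8 genes tested (y axis). Every interval crosses 0, and that of Cacna1g is the widest, from -3.72 to 0.64 at 72 h.

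Other voltage-gated calcium channel genes, a list of 16, showed no call either: 12 were tested and 0 called in any comparison. They held 176 regions, 4 of them in all 18 libraries, with 1 gain (0.114% of 880 comparisons, against 0.351% over all regions) and 8 losses (0.909%, against 0.561%). The losses were in Cacna1e (6 h), the skeletal muscle pore Cacna1s (10 min and 6 h), Cacna2d4 (10 min, 1 h and 72 h) and Cacng2 (10 min and 6 h), and the gain was in Cacna1s (24 h).

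The pattern most like that of Cacna1c was sought among 2506 genes with spans of at least 100000 bases, as the Spearman correlation over 18 libraries of percent covered divided by that of all genes. The closest were Lrrc1 (rho = 0.717, r = 0.540), Ppp6r3 (0.715, 0.618) and Zfat (0.711, 0.732), and 95% of genes were below 0.398. Divided in this way, Cacna1c had 1.16 at 72 h and 1.01 in sham. Lrrc1 had 2.75 and 2.59 and Ppp6r3 0.733 and 0.613, but Zfat had 0.836 and 1.13, so Zfat was lower at 72 h. These are descriptions over the same 18 libraries, with no test. Some regions may belong to a neighbour as well: 3 of Cacna1c and 2 of Cacna1d lie where another protein-coding gene overlaps.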

How the data were processed

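MeDIP-seq libraries of 18 mice, 3 in each of 6 groups, were analysed from 18 deposited peak lists, 1 per library, so peaks were called per library. The submitters' processing notes name Bowtie2, MACS2 and mm10 without versions. Each deposited list gives a position and a score, the authors' value for each peak, whose scale is not given in the sources used here; the lowest was 50 in each list. Nothing gives read counts, so depth is unknown and no counting interval can be given. Positions are printed from 1, with gene spans from RefSeq GRCm38.p6 (mm10 is the same assembly); exon and intron positions were not analysed here.

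Peaks overlapping by at least 1 base were merged. For each protein-coding gene with 2000 bases added on each side, the percent of the span under peaks was computed per library. limma 3.58.1 (R 4.3.3, trend) was run on log2(percent + 0.5) for the 7406 genes with a mean of at least 1 peak per library. Adjustment was by Benjamini-Hochberg, with a threshold of 0.05. The fit was also run on data simulated with normal noise, and its outcome there is not given here. The p-values are over mice.

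All 10 genes are named. Regions are named if in all 18 libraries, gained, lost or on a start window, and for Cacna1c if in at least 9 libraries; a few regions beside a start window or of highest recurrence in their gene were added after their values were seen. The rule for the members uses no measured value, but members and lists were chosen with earlier results of these data known. Alternatives were a pseudocount of 0.1, no filter, equal numbers of top-scoring peaks (34255), a score of at least 100, gene spans alone, division by all genes, a replicate block, merging within 500 bases, 50% coverage and each library left out. The comparison of late with early MI times, and its repeat on other scales, was added after the data were seen, as was the repeat of other separations between groups on those scales. A check showed no clear pairing of libraries by replicate number but cannot exclude it, and the labels give them no shared batch.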

Additional observations from a re-analysis of the deposited data

How the results depend on the processing

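No calcium channel gene was called in any limma comparison under the 26 settings run, and the smallest adjusted p over them was 0.236, for Cacna2d2 at 72 h against 6 h without the second 6 h library. Counts of called genes over all genes did move. Several settings, dropping the filter among them, also changed which genes were tested. The counts are therefore not all out of the same total, and no percent is given for them here. Without the filter on low values they were 42 over the 6 groups, 26 between MI time points, 8 for MI against sham, and against sham 17 (72 h), 8 (24 h), 7 (6 h), 8 (1 h) and 9 (10 min). With equal numbers of top-scoring peaks they were 1 over the 6 groups, 2 (72 h), 0 (6 h), 1 (1 h) and 0 (10 min); with scores of at least 100 they were 0 over the 6 groups and 0 for 6 h, 1 h and 10 min. At 6 h a pseudocount of 0.1 gave 3 and gene spans alone 4. Leaving out 1 library at a time gave 4 to 17 over the 6 groups, 0 to 7 for MI against sham, 3 to 15 between time points, and against sham 0 to 8 (72 h), 0 to 4 (24 h), 1 to 12 (6 h), 0 to 7 (1 h) and 0 to 13 (10 min). Fewer libraries also loosen the region rule: 3 to 8 channel regions were gained and 4 to 21 lost at the time points, with 0 gained and 0 to 3 lost for MI against sham. Without the first sham library 18 were lost at the time points and 3 for MI against sham, and without sham library 3 they were 21 and 3. Gains were 8 without sham library 2 or 3 or 72 h library 3, and 5 without 10 min library 1 or 2, 1 h library 3, 6 h library 1, 24 h library 3 or 72 h library 2. The 17 calls over the 6 groups came without the second 6 h library. Requiring 50% coverage gave 1 gained, a score of at least 100 gave 1 gained and 1 lost, and equal numbers of peaks gave 1 lost. No share over all regions is given here for these settings or with a library left out. None of these counts of channel regions can therefore be set against a background.

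The replicate block gave 2 called genes over the 6 groups (4 without it), 0 at 10 min and 1 at 1 h. The check run showed no clear pairing by number, which it cannot exclude. Same-numbered libraries deviated with a mean correlation of 0.009 over 45 pairs, and differently numbered ones with -0.004. Of the same-numbered pairs 1 was over 0.1, and 8 of 18 libraries matched their own number best.

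The sign of the MI against sham difference, never called, turned in 10 cases. Cacna1d was 0.132 without the second sham library and 0.0145 after division by all genes, and ran from -0.343 to 0.132 with 1 library left out. Cacna1g was 0.59 with equal numbers of peaks. Cacna2d1 was 0.0453 with equal numbers of peaks and 0.0475 after division, and ran from -0.0844 to 0.00351 with 1 left out, the last without the third 24 h library. Cacnb2 was -0.0848 with scores of at least 100, -0.113 without the first sham library and -0.00972 without the third 24 h library, and reached 0.135 without the second sham library. Cacnb4 was -0.26 with scores of at least 100. The cause was not tested. Unknown depth limits every statement on a missing peak, since list length differed between libraries and a peak just under the caller's threshold is not listed.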
